A study of Mus musculus with 6 samples.

Results

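Tlx1 and 7 genes that surround it on mouse chromosome 19, namely Lzts2, Sfxn3, Kazald1, Lbx1, Btrc, Poll and Fbxw4, were followed in embryonic spleens that differ in Tlx1 genotype. These genes were taken as the probe sets whose only gene symbol is one of these names, and the brightest over the 6 arrays was to stand for a gene with several. Each of the 8 genes had 1 probe set, so no choice between probe sets arose, and all 8 were among the 18710 genes tested. Tlx1 is the gene altered by design, and Kazald1 was chosen by its measured fall in homozygous spleens. The differences of both are therefore given as a description with no test. The other 6 genes were chosen by their place beside Tlx1. The samples were spleens of mouse embryos at E13.5, with total RNA of Tlx1 heterozygous embryos on 3 arrays and of Tlx1 homozygous embryos on the other 3. Both groups carry the altered allele, once in the heterozygous controls and on both chromosomes in the homozygous embryos, if homozygous is read as homozygous for the altered allele. No wild-type group was part of the design, and the labels name neither the allele nor how it was made, nor whether a replicate was 1 embryo or a pool. The p-values thus rest on a spread between arrays that may be technical.

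Tlx1, once called Hox11, encodes a homeodomain transcription factor of the NK-like class. It is switched on early in the mesenchyme from which the spleen forms, and mouse embryos without it lose the spleen primordium in mid-gestation. Kazald1 encodes a secreted protein with an insulin-like growth factor binding domain and a Kazal domain, and Lbx1 a homeodomain factor of limb muscle precursors and dorsal spinal cord neurons. Btrc and Fbxw4 encode F-box proteins, the parts of SCF ubiquitin ligases that pick the substrates, and Btrc is known for marking beta-catenin and the NF-kappaB inhibitors for destruction. Lzts2 encodes a leucine zipper protein linked to beta-catenin, Sfxn3 a mitochondrial carrier protein and Poll the DNA repair polymerase lambda. In the gene order of the RefSeq table of GRCm38.p6, with only protein-coding genes counted, Kazald1 is next to Tlx1 on the lower-coordinate side and Lbx1 is next to it on the other. Pdzd7 and Dpcd also lie between Lzts2 and Fbxw4 and are not part of the set.

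Promoter sequence is shown for Tlx1 and Kazald1, the genes of the interval with the large differences. The windows run from 250 bases before to 50 bases after an annotated start in RefSeq on GRCm38.p6, where 4 of the 8 genes were matched. Capitals mark matches, on either strand, to TAAT (a core bound by many homeodomains), TAAGTG (a core of NK-class homeodomain sites), TATAA (the TATA box core), CCAAT (the CCAAT box) and GGGCGG (a GC box). Tlx1 is at chr19:45150465-45150764 on the plus strand, and Kazald1 has 2 annotated starts, at chr19:45074991-45075290 and chr19:45075837-45076136, also on the plus strand.
Tlx1: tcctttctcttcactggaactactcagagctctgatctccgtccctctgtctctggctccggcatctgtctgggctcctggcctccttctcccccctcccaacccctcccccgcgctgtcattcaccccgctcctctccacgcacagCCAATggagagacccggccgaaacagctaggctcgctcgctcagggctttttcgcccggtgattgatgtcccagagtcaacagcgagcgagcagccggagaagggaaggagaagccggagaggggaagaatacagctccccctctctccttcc
Kazald1, upstream start: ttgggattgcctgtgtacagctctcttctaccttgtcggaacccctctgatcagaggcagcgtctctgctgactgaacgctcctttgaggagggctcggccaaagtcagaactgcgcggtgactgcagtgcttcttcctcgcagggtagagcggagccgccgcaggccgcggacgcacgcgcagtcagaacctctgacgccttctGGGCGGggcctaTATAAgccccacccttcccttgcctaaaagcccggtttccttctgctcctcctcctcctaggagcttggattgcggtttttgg
Kazald1, downstream start: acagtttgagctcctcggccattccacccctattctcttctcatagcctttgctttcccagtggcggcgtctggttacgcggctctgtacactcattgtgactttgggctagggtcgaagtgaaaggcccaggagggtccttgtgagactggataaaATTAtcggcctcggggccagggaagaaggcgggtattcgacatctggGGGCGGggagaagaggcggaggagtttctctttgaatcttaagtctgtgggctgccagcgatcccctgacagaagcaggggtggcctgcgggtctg

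The Tlx1 window held a CCAAT box and none of the other 4 motifs. The upstream Kazald1 window held a TATA box core whose first base lies 33 bases before the start, and a GC box before it. The downstream Kazald1 window held 1 TAAT match, read on the opposite strand, and a GC box. No marked matches overlapped in these 3 windows. Of 32851 promoter windows of the same length, 58.0% held TAAT, 9.20% TAAGTG, 24.9% TATAA, 37.4% CCAAT and 35.7% GGGCGG. A match is a description of letters and not a binding site. G and C made up 61.7% of the Tlx1 window and 60.0% and 57.0% of the Kazald1 windows, against a median of 52.7% over all windows.

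Tlx1 was lower in every homozygous spleen. Its intensity was 825, 706 and 719 in the heterozygous replicates 1 to 3 and 171, 209 and 200 in the homozygous replicates 1 to 3. The groups did not overlap, and the lowest heterozygous value was 3.38 times the highest homozygous value. The means were 750 ± 65.3 and 193 ± 19.9 (SD, n = 3 each), so that 25.8% of the heterozygous intensity was left. On the log2(intensity + 1) scale the difference, homozygous minus heterozygous, was −1.95 ± 0.09 (SE), the 13th deepest fall among the 18710 genes. The position of the probe set relative to the alteration was not analysed here. The signal left in homozygous spleens therefore does not measure functional transcript, and the value checks the labels only in part.

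Kazald1 was lower still. Its intensity was 1408, 1251 and 1181 in the heterozygous replicates 1 to 3 and 127, 114 and 135 in the homozygous replicates 1 to 3. All homozygous values lay far under all heterozygous ones, and the lowest heterozygous value was 8.72 times the highest homozygous value. The means were 1280 ± 117 and 125 ± 10.6 (SD, n = 3 each), which leaves 9.80% of the heterozygous intensity. The log2 difference was −3.34 ± 0.09 (SE), a 10.1-fold lower level and the 2nd deepest fall of all genes. Both genes varied little within a group, with a coefficient of variation of 8.71% and 10.3% for Tlx1 and of 9.10% and 8.48% for Kazald1 in heterozygous and homozygous spleens. Heterozygous replicate 1 was the brightest array for both genes, whereas the dimmest array was homozygous replicate 1 for Tlx1 and homozygous replicate 2 for Kazald1. In whole tissue, fewer cells of a type and less RNA per cell cannot be told apart.

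**Figure D1:**
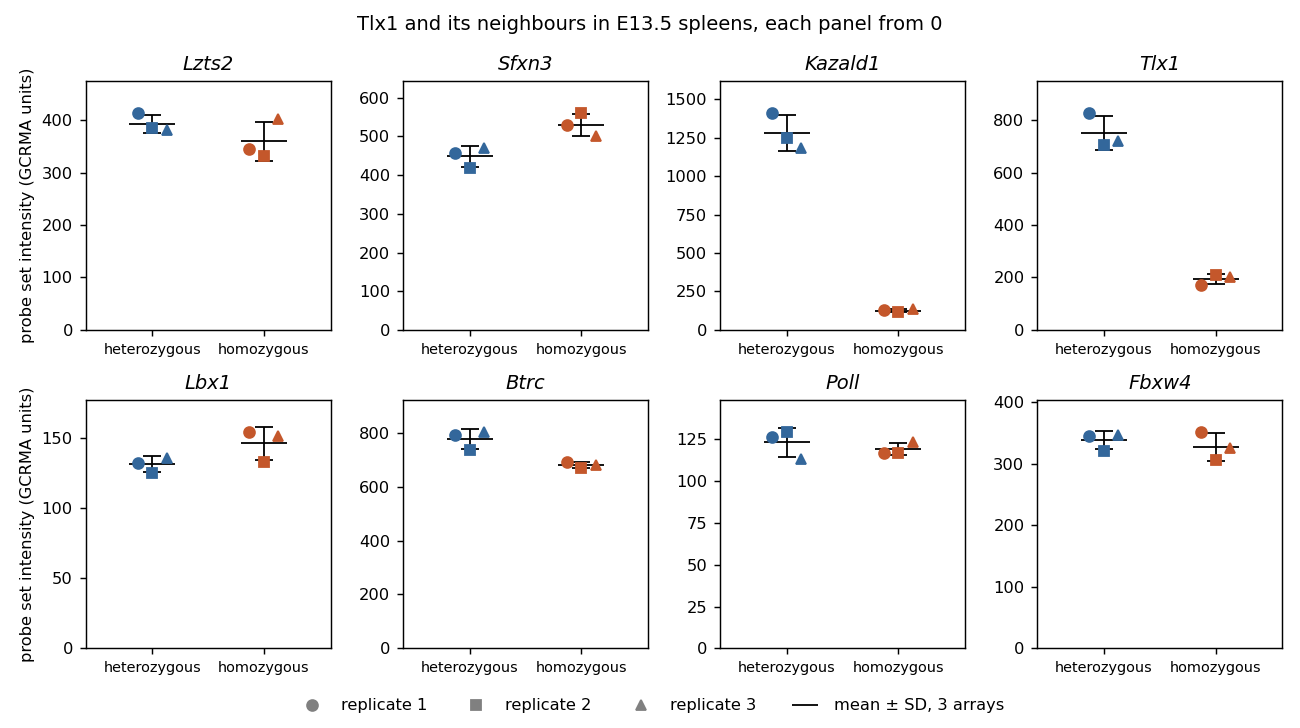
Intensity of the 8 genes on each array, with 1 panel per gene in their order along the chromosome and the vertical axis, in GCRMA intensity units, starting at 0. Blue points are heterozygous and orange points homozygous arrays, marker shapes are replicates, and bars give the mean ± SD of 3 arrays; only Kazald1 (from 1280 to 125) and Tlx1 (from 750 to 193) have means that are more than 2-fold apart.

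None of the other 6 genes passed the test across all genes. A gene is called where limma's adjusted p is below 0.05, as was the case for 17.0% of the genes tested (10.4% higher and 6.56% lower in homozygous spleens), and 0 of these 6 were called in either direction. At an unadjusted p below 0.05, Btrc and Sfxn3 would pass, with opposite signs. The share of all genes that pass at that level was not counted, so passing it does not set these genes apart. A p above the threshold does not show that the levels were equal, so the 95% interval of each difference is given.

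Sfxn3, next after Kazald1 on the side away from Tlx1 and a carrier of the inner mitochondrial membrane, had the larger of these differences. Its intensity was 456, 418 and 471 in heterozygous and 529, 559 and 501 in homozygous spleens. The groups did not overlap, as in 38.3% of all genes tested, but the lowest homozygous value was only 1.06 times the highest heterozygous one. The log2 difference was 0.24 ± 0.07 (SE), with an interval of 0.07 to 0.41 and an adjusted p of 0.0537 in limma. Among 17 alternative settings 6 brought it under the threshold, the lowest adjusted p being 0.0246 (a robust fit with a variance trend), and all estimates were above 0.

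Lzts2, the leucine zipper gene, lies 1 gene beyond Sfxn3, with the Usher complex gene Pdzd7 in between. Its intensity was 413, 385 and 381 in heterozygous and 345, 331 and 402 in homozygous spleens. Homozygous replicate 3 fell among the heterozygous values. The log2 difference was −0.13 ± 0.08 (SE), with an interval of −0.32 to 0.06 (adjusted p = 0.298 in limma).

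Lbx1, the homeobox gene on the other side of Tlx1, had intensities of 133, 125 and 136 in heterozygous and 155, 133 and 152 in homozygous spleens. Homozygous replicate 2 lay inside the heterozygous range and the other homozygous arrays above it. The log2 difference was 0.15 ± 0.08 (SE), with an interval of −0.02 to 0.33 (adjusted p = 0.190 in limma). Of the coding genes directly beside Tlx1, Kazald1 was 10.1-fold lower and Lbx1 was not called.

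Btrc, the F-box gene after Lbx1, had intensities of 791, 734 and 802 in heterozygous and 691, 668 and 680 in homozygous spleens. The groups did not overlap, with the lowest heterozygous value 1.06 times the highest homozygous one. The log2 difference was −0.19 ± 0.06 (SE), with an interval of −0.33 to −0.05 and an adjusted p of 0.0694 in limma. It passed under 2 of 17 alternatives, and was at −0.12 (adjusted p = 0.436 in limma) once the level of the Y-linked genes Eif2s3y and Kdm5d entered the fit as a covariate. Those genes were brighter on heterozygous replicates 1 and 3 (mean log2 of 8.84 and 9.04) than on the other arrays (8.17 to 8.27). Their part in the difference was not tested beyond this fit. The covariate partly follows the genotype, and the SE of Btrc was 0.09 with it. A call lost in that fit is therefore not by itself a smaller difference. In the same fit Sfxn3 was at 0.33 (adjusted p = 0.0682 in limma).

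The differences of Poll and Fbxw4 were the smallest of the set. Poll, the repair polymerase, was at 126, 129 and 113 in heterozygous and 117, 117 and 123 in homozygous spleens, with a log2 difference of −0.04 ± 0.07 (SE) and an interval of −0.21 to 0.12 (adjusted p = 0.693 in limma). Fbxw4, whose locus is altered in the mouse limb mutant dactylaplasia, was at 346, 321 and 347 in heterozygous and 352, 306 and 325 in homozygous spleens. Both genes had overlapping groups. The difference of Fbxw4 was −0.05 ± 0.07 (SE), with an interval of −0.21 to 0.12 (adjusted p = 0.693 in limma), and its sign turned to 0.03 after quantile normalization and to 0.0019 after cyclic loess.

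**Figure D2:**
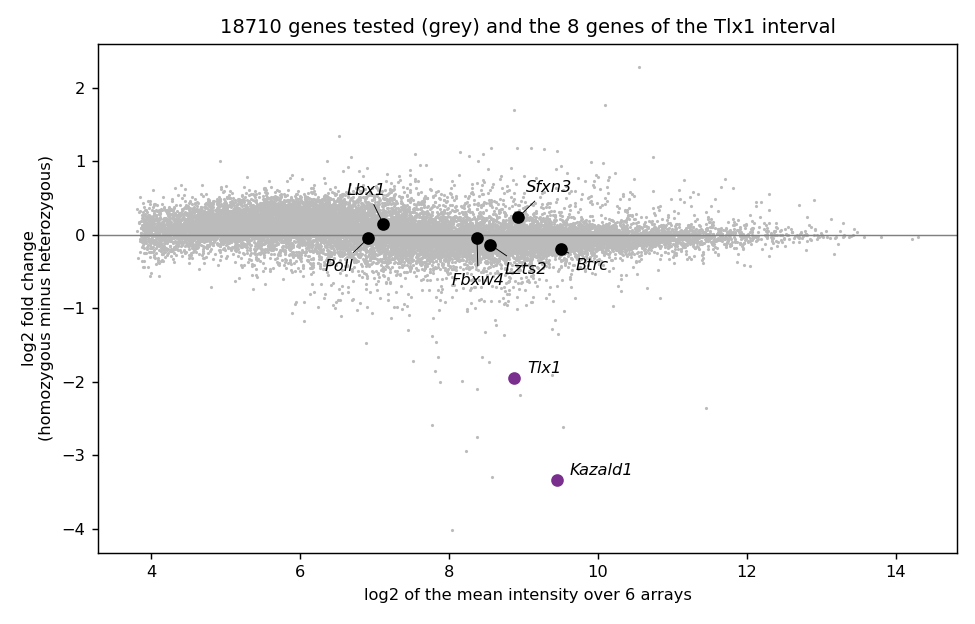
Log2 fold change, homozygous minus heterozygous, against the log2 of the mean intensity over 6 arrays for the 18710 genes tested (grey), with the 8 genes followed here marked. Kazald1 (−3.34) and Tlx1 (−1.95), in purple, lie among the deepest falls, and the other 6 genes, in black, lie inside the main cloud between −0.19 and 0.24.

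The interval was then widened to all protein-coding genes that start within 1 Mb of the start of Tlx1. Apart from Tlx1 there were 33 such genes and 32 were tested, all but Npm3. Of these, 3 were called higher and 1, Kazald1, lower, which is 12.5% against 17.0% of all genes tested. Kazald1 was chosen on this contrast, and without the 7 neighbours followed here 3 of 25 genes were called, or 12.0%. The median log2 difference was 0.01 in the window and 0.02 over all genes. On the lower-coordinate side 1 of 17 genes was called higher and 1 lower, and on the other side 2 of 15 were called higher and none lower. Leaving Kazald1 aside, the estimates on both sides lay between −0.21 and 0.49. On the rest of chromosome 19, 57 of 581 genes were called higher and 42 lower, or 17.0%. Besides Tlx1 and Kazald1, 1 further gene on the chromosome had a log2 difference beyond 1 in size, the G protein subunit gene Gna14 outside the window (chosen after its values were seen).

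The 3 called rises in the window were those of genes at some distance in the gene order. Sec31b, a coat protein gene of vesicles that leave the endoplasmic reticulum, is 12 genes away from Tlx1 and was at 40.4, 45.4 and 39.9 in heterozygous and 59.6, 52.7 and 66.0 in homozygous spleens. Its log2 fold change was 0.49 ± 0.09 (SE; adjusted p = 0.0113 in limma), and 0.39 with the Y-linked covariate (adjusted p = 0.0858). Fgf8, a growth factor gene of limb, brain and gut patterning, is 6 genes away and was at 152, 139 and 164 against 197, 187 and 257, a log2 fold change of 0.48 ± 0.12 (SE; adjusted p = 0.0304 in limma). It lost its call when heterozygous replicate 1 or 2, or homozygous replicate 1 or 3, was left out (0.34 to 0.53), and with the covariate (0.59, adjusted p = 0.0609). Pitx3, a homeobox gene of lens and dopamine neurons, is 16 genes away and was at 99.3, 94.4 and 108 against 131, 111 and 143, a log2 fold change of 0.34 ± 0.10 (SE; adjusted p = 0.0450 in limma). Its call was lost in the same 4 refits (0.26 to 0.34), after quantile normalization (0.33), after cyclic loess (0.29) and with the covariate (0.44). All 3 had a mean intensity under 200, and among the 9811 genes with a mean under 200 15.7% were called higher and 4.26% lower. Pdzd7, of the 3 nearest tested genes below Tlx1, was at 85.2, 86.4 and 104 against 126, 99.7 and 118, with overlapping groups and a log2 difference of 0.31 ± 0.11 (SE; adjusted p = 0.0768 in limma), and it passed under 4 of 17 alternatives (lowest adjusted p = 0.0285, with array weights).

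**Figure D3:**
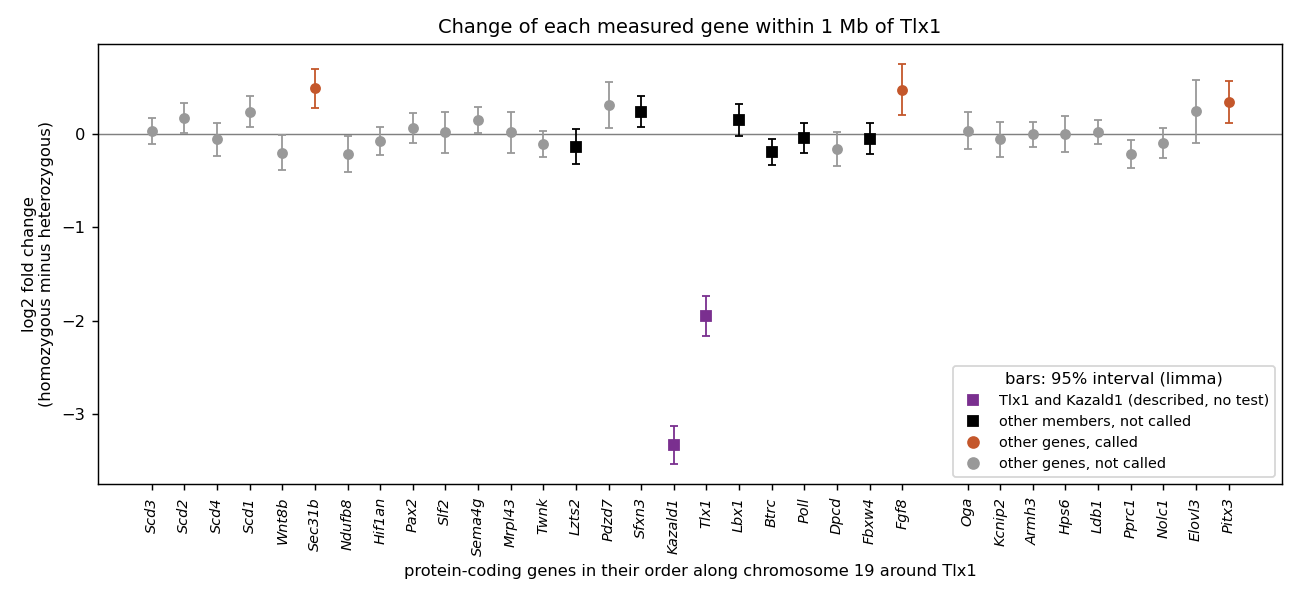
Log2 fold change, homozygous minus heterozygous, with its 95% interval from limma, for Tlx1 and the 32 tested protein-coding genes within 1 Mb of it, in their order along chromosome 19 (the gap is the place of Npm3). Squares are the 8 genes followed here and circles the others; Kazald1 at −3.34 and Tlx1 at −1.95 stand side by side, and every other gene lies between −0.21 and 0.49.

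The genes with the profile closest to that of Tlx1 were sought over the 6 arrays as those with the smallest root mean square difference between log2 profiles, each centred on its own mean. Nearest was Robo2, a receptor for Slit guidance proteins, at 1104, 1005 and 1079 in heterozygous and 267, 301 and 276 in homozygous spleens, with a root mean square difference of 0.072. Next came Clca3a2 (0.094), the cofactor gene Eya1 (0.11) and the collagen gene Col8a1 (0.13). Clca3a1 (0.14), the glutamate receptor gene Grm7 (0.15), Slitrk6 (0.16) and Mamld1 (0.19) completed the 8. Clca3a1 and Clca3a2 are near-identical paralogs and uncertain as separate results. For Kazald1 the nearest gene was Gna14, at 687, 674 and 726 against 66.4, 66.1 and 77.1, with a root mean square difference of 0.11. The next were further off, from Popdc3 (0.26) and Frzb (0.31) through Apela (0.36), Bves (0.37), Mme (0.41) and Slc40a1 (0.53) to Clca3a1 (0.60). With 2 groups that stand apart, this measure follows mainly the size of the group difference.

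**Figure D4:**
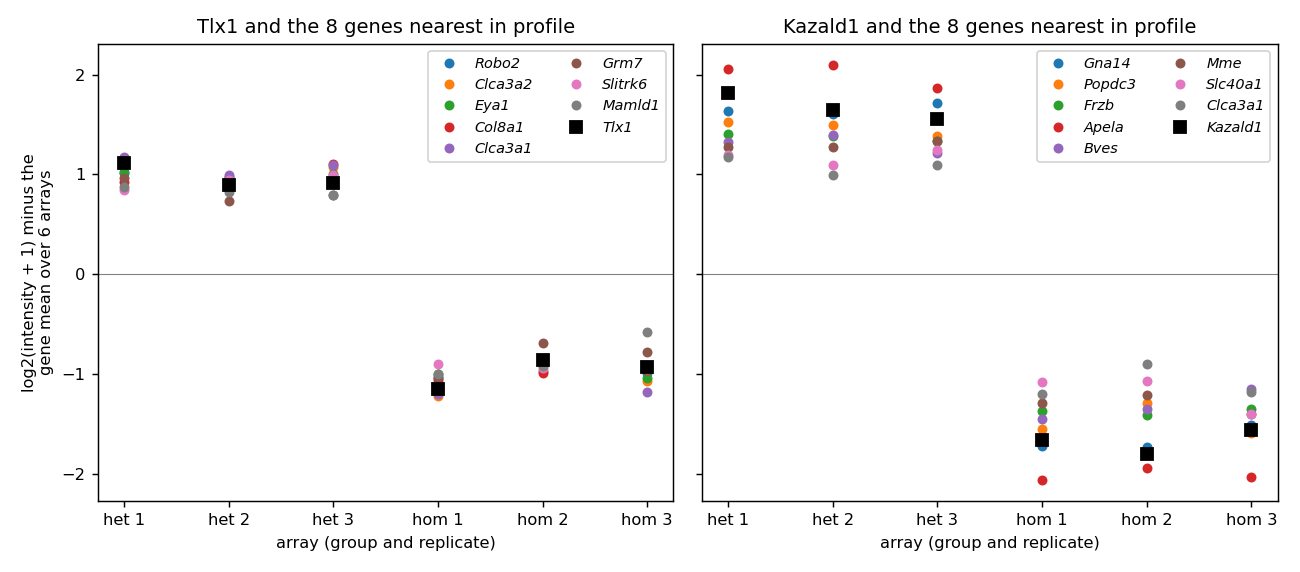
Centred log2(intensity + 1) on each of the 6 arrays for Tlx1 (left, black squares) and Kazald1 (right, black squares) with the 8 genes nearest to each in profile (coloured circles). The genes near Tlx1 are bunched closely, up to 0.19 from it, whereas only Gna14 lies within 0.11 of Kazald1 and the others range to 0.60.

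The paralogs of these 8 genes showed no change of the size seen for Tlx1 or Kazald1. Of 25 measured paralogs and relatives, among them the other Tlx and Lbx genes, sideroflexins, the polymerases related to Poll and insulin-like growth factor binding proteins, 1 was called higher and 2 lower, with a median log2 difference of 0.06, beside 10.4% higher and 6.56% lower and a median of 0.02 over all genes tested. Tlx2, which acts in enteric neurons, was at a log2 difference of 0.28 ± 0.11 (SE; adjusted p = 0.122 in limma) and Tlx3, a factor of spinal sensory neurons, at 0.24 ± 0.10 (SE; adjusted p = 0.140 in limma). Both had overlapping groups. Each passed without homozygous replicate 2 (0.38 and 0.35). Of the relatives of Sfxn3, Sfxn1 was at −0.21 (adjusted p = 0.0691 in limma) and Sfxn2 at 0.25 (adjusted p = 0.0828 in limma), both chosen after their values were seen and passing under 5 and 4 of 17 alternatives. Among relatives of Kazald1 the protease gene Htra3 fell by 0.47 and the endothelial proteoglycan gene Esm1 by 0.38, and Igfbp5 rose by 0.27 on the log2 scale. Esm1 lost its call when heterozygous replicate 2 or 3, or any 1 homozygous replicate, was left out (−0.43 to −0.29), and Igfbp5 without heterozygous replicate 1 or 2 or homozygous replicate 1 (0.25 to 0.27) and with the Y-linked covariate (adjusted p = 0.0660).

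In the wider NK-like homeobox class, 12 of 34 measured genes other than Tlx1 and Lbx1 were called higher and 3 lower. The median was 0.27, beside 10.4% higher, 6.56% lower and a median of 0.02 over all genes tested. The falls were those of the spleen factors Nkx2-5 and Nkx3-2 and of Hhex (−0.46, adjusted p = 0.00268 in limma). Nkx2-5 fell by 1.36 ± 0.15 (SE) and Nkx3-2 by 1.23 ± 0.06 (SE). The largest rises were those of Msx2 (0.60) and Dlx2 (0.60), the latter lost when heterozygous replicate 1 or 2, or homozygous replicate 1 or 3, was left out (0.40 to 0.65) and after cyclic loess (0.49). Of the 34 genes 29 had a mean under 200, where 12 rose and 1 fell, beside 15.7% higher and 4.26% lower among all genes that dim.

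The genes around the ubiquitin ligases of Btrc and Fbxw4 were counted in the same way. Of 29 measured genes of SCF ligases and their neddylation, none rose and 1 fell, beside 17.0% called over all genes. The test at this number of arrays can miss small changes. The gene that fell was Skp1, the adaptor that binds F-box proteins, which fell by 0.27 ± 0.06 (SE; adjusted p = 0.0169 in limma). Its call was lost without heterozygous replicate 1 or 2 or homozygous replicate 1 (−0.28 to −0.26) and with the Y-linked covariate (adjusted p = 0.116). Among 25 genes whose proteins are known Btrc substrates 1 was called higher and 4 lower, with a median of −0.07. Both directions together are near the 17.0% over all genes, where 10.4% were called higher and 6.56% lower. Among genes with a mean of 200 or more, 4.57% were called higher and 9.09% lower. Whether the substrates differ from these shares was not tested. The kinase gene Plk4 fell by 0.40, the checkpoint gene Clspn by 0.35 and the Hedgehog effector gene Gli2 by 0.33, and Gli3, which acts mainly as the repressor of that pathway, rose by 0.38. The remaining fall was that of the NF-kappaB inhibitor gene Nfkbib (−0.26, adjusted p = 0.0224 in limma). Gli2 lost its call without any 1 array other than homozygous replicate 3 (−0.37 to −0.26), after quantile normalization and after cyclic loess (−0.27 and −0.28) and with the Y-linked covariate (−0.30). Clspn lost it when replicate 1 or 3 of either group was left out (−0.38 to −0.29), after quantile normalization (−0.28) and with the covariate (−0.24). These lists hold transcripts, and substrate protein was not measured.

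The labelled tissue and other cell types were checked with marker lists, to be read beside 10.4% called higher and 6.56% lower over all genes. These shares were 15.7% and 4.26% among genes with a mean under 200, and 4.57% and 9.09% among genes with a mean of 200 or more. Of 17 measured spleen mesenchyme factors other than Tlx1, 5 were called higher and 4 lower, and the dimmest of them, Hoxa10, had a mean of 56.6. Endothelial markers had 15 of 20 called lower and none higher, with a summed intensity of 13167 to 13482 in heterozygous and 9643 to 10586 in homozygous spleens. Erythroid markers had 7 of 15 called lower (13928 to 15137 against 10859 to 11651). Pancreas markers had 4 of 13 called higher (1639 to 2223 against 3177 to 6616), epithelium markers 7 of 21 (4498 to 5517 against 5614 to 6135) and neuron and glia markers 8 of 15 (3373 to 3411 against 4985 to 5389). Macrophage markers had 1 of 16 called lower, and liver markers 1 of 11 called higher. Listed markers under the filter floor of 15, or without a probe set of their own, were not counted. Measured were 13 of 18 listed pancreas, 15 of 18 erythroid and 15 of 18 neuron and glia markers. The spleen list had 18 of 20 measured, with Tlx1 counted. The part of these cell types in the differences of Tlx1, Kazald1 and the neighbours was not tested. The mean summed level in homozygous spleens was 75.5% of the heterozygous one for endothelial and 78.8% for erythroid markers. It was 98.8% for macrophage, 109% for liver, 121% for epithelium, 152% for neuron and glia and 269% for pancreas markers. The spleen factors, with Tlx1 counted, were at 99.1%. Bright genes weigh most in such a sum, and single spleen factors ranged from 25.8% (Tlx1) to 202% (Ebf2). Array medians were 106 to 110. Across genes, log2 values of arrays correlated at 0.995 to 0.997 inside a group and at 0.989 to 0.993 across groups. With the Y-linked covariate the log2 difference was −1.92 for Tlx1 and −3.34 for Kazald1.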

How the data were processed

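The values are the authors' deposited probe set intensities, on a linear scale. They come from GCRMA, per the submitters' processing notes, whose version is not given in the sources used here. GCRMA models probe background and normalizes arrays to each other. A platform annotation table named 21789 of 35512 probe sets with 1 symbol and 1621 with several; 12102 were unnamed. Named probe sets with log2(intensity + 1) of at least 4 on at least 3 arrays were kept, the brightest per gene, giving 18710 genes. The difference, homozygous minus heterozygous, was estimated by limma (version 3.58.1, R 4.3.3) over 6 arrays with no covariate, two-sided, with Benjamini-Hochberg adjustment over all genes; the added 1 pulls dim fold changes toward 0. The number of arrays limits precision. On data simulated for these 18710 genes, with 50 genes given each size of change, the test called 8% at a log2 change of 0.25 and 76% at 0.5. Far fewer genes were changed there than the 3178 called in the real data, and the adjustment is stricter where fewer genes change. These shares therefore need not hold for the real data.

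The 8 genes, the gene lists and the settings were chosen with earlier results of these data known. Named are the 8 genes, called genes within 1 Mb of Tlx1 and its 3 nearest tested genes on each side. Up to 4 called members with the largest differences are named of each homeobox, paralog, SCF and substrate list. The 8 genes most like Tlx1 and Kazald1 in profile are also named, predicted genes skipped. Hhex, Nfkbib and Ebf2 were added after their values were seen and were not refitted. Gene order came from RefSeq on GRCm38.p6, with no coordinates taken for the array. The labels give no pairing by replicate number, and arrays of the same number had deviation correlations of −0.11 to 0.04. With 3 arrays per group these cannot show that no pairing existed.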

Additional observations from a re-analysis of the deposited data

How the results depend on the processing

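Of 17 alternatives, none turned the sign of Tlx1 (−2.02 to −1.87), Kazald1 (−3.40 to −3.20, the latter with an added constant of 16), Lbx1, Btrc, Lzts2, Sfxn3 or Poll. Without each replicate in turn the log2 difference was −2.01 to −1.87 for Tlx1, −3.40 to −3.27 for Kazald1, 0.11 to 0.22 for Lbx1, −0.23 to −0.16 for Btrc, −0.22 to −0.08 for Lzts2, 0.19 to 0.28 for Sfxn3, −0.10 to −0.0079 for Poll and −0.10 to 0.0019 for Fbxw4. Fbxw4 turned sign after quantile normalization (0.027), after cyclic loess (0.0019), with the Y-linked covariate (0.029) and without homozygous replicate 2 (0.0019); the cause was not tested. Sfxn3 passed with an added constant of 16 (0.23), a filter at log2 of 6 (0.24, with fewer genes tested), quantile normalization (0.31), cyclic loess (0.30), a variance trend and robust fit (0.24) and array weights (0.26). Btrc passed with the filter at 6 (−0.19) and the trend and robust fit (−0.19). Called genes in the window numbered 7 with the constant of 16 or the filter at 6, 9 with the trend or with array weights, 1 with the Y-linked covariate and 2 to 5 without 1 array, against 4. Over all genes 3178 were called, 3600 with the constant of 16, 3121 with the filter at 6, 3643 with the trend, 4569 with array weights, 1560 with the covariate and 1198 to 3563 without 1 array (1689 without heterozygous replicate 1, 1376 without heterozygous replicate 2, 1198 without homozygous replicate 1, 1822 without homozygous replicate 3); fewer samples enter those refits. With the replicate block 3163 genes were called, Sfxn3 was at 0.24 (adjusted p = 0.0887) and Btrc at −0.19 (adjusted p = 0.106), and no call among the 8 genes changed; Tlx2 (adjusted p = 0.0327) and Sfxn2 (adjusted p = 0.0477) passed there. For the other named genes that were refitted, 533 values kept direction and side of the threshold, 45 lost the call and 16 gained it. The genes nearest to Tlx1 and Kazald1 in profile are among them and raise the first count. They were picked by a measure that follows the size of the group difference, and each kept its call in all 17 alternatives. The background of the probe sets is unknown, which limits the dim values, those of Lbx1, Poll and homozygous Kazald1 among them, and the size of the Kazald1 fold.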
